A study of Mus musculus with 22 samples.

Results

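The 8 cardiac fibroblast markers described here are Pdgfra, Tcf21, Dpt, Mfap5, Olfml2b, Pi16, Dpep1 and Gsn. They were taken as the array probes whose RefSeq accession carries one of these symbols, which gave 10 probes, 8 of them kept, and so 8 genes of the 15503 tested. The hearts came from 22 female C57BL/6 mice, each hybridised to its own Agilent 2-colour array: at day 1 from 5 controls and 5 animals given nano-TiO2, and at day 28 from 6 and 6. Treated animals had received 162 µg of nanosized titanium dioxide into the trachea once, suspended in 40 µl of vehicle, and controls the vehicle alone (0.9% NaCl with 10% cell-free lung lavage fluid). All mice were 5 to 7 weeks old when bought, were housed for 1 to 3 weeks more, and were instilled and killed under Hypnorm and Dormicum anaesthesia. The day counts from the instillation. Hearts were cut into small pieces and frozen, and the labels do not say which chamber a piece came from. Each value is a log2 ratio of the heart (Cy5) to a common reference RNA from 11 mouse cell lines (Cy3), so the level of one gene cannot be set against that of another.

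Fibroblasts are the matrix-making cells between the muscle cells of the heart, and most of them descend from the epicardium, the cell layer on its surface. They are marked by the growth factor receptor Pdgfra and the transcription factor Tcf21, build and maintain the collagen and microfibril scaffold, and line vessels as adventitial cells, for which Pi16 is a marker in mouse. When activated after injury they switch on genes such as Postn, which encodes the matrix protein periostin.

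Promoters are shown for a few members because 1 member, Tcf21, is itself a transcription factor, of the helix-loop-helix class that binds the E box, CANNTG. Whether Tcf21 acts at these promoters was not tested. RefSeq start sites (GRCm38.p6) were at hand for 7 of 8 members, in 9 windows, with Mfap5 not among them. The 250 bases before the start are shown for Olfml2b, Dpt and Dpep1, the members with a single start among those that differed between the control groups. They lie at chr1:170644282-170644531, chr1:164796413-164796662 and chr8:123185985-123186234, all on the plus strand, 5′ to 3′, with every CANNTG in capitals.
Olfml2b: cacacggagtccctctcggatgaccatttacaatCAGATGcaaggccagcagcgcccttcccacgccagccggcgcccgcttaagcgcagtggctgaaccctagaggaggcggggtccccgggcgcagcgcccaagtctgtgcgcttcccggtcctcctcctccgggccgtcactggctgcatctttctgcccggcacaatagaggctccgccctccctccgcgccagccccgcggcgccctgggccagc
Dpt: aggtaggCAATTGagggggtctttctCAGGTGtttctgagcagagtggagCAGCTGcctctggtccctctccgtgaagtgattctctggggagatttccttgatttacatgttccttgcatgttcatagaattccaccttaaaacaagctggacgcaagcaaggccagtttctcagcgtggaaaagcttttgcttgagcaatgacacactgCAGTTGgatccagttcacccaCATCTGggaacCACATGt
Dpep1: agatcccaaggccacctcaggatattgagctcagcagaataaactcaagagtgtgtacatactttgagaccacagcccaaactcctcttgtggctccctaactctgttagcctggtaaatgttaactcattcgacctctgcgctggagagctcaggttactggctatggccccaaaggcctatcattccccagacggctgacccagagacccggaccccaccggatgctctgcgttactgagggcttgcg
CANNTG reads the same on both strands, and it stood in 66.2% of the 32851 windows of this length, so its presence sets no promoter apart. The Dpt window held 6 such matches, 1 of them the CAGCTG form that 13.0% of windows hold, and the nearest began 7 bases before the start. The Olfml2b window held 1 match and the Dpep1 window 0. Among the windows not shown, Pdgfra held 1 match, the 3 starts of Gsn held 1, 2 and 2, and Tcf21 and Pi16 held 0.

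Heart muscle genes stood far above the reference in all mice, although the labels' extraction protocol names the left lung as the tissue. Actc1, the cardiac actin, lay 5.96 ± 0.36 (SD, n = 22) above it in log2, with Tnnt2 at 5.66 ± 0.22 (SD, n = 21) and Myh6 at 4.95 ± 0.25 (SD, n = 19), while of 6 lung epithelium genes Sftpc, Sftpb and Ager were detected on 0 of 22 arrays, Sftpa1 and Sftpd on 2 each, both day 28 controls, and Scgb1a1 on 6. In Cy5 each array had 32.7% to 52.8% of its probes well above background and no saturated spot, and r between arrays was 0.895 to 0.986. On 3 arrays the mean of 6 atrial genes lay below -3 (control day 1 replicate 2, nano-TiO2 day 1 replicate 1 and nano-TiO2 day 28 replicate 1). On 5 others at least 3 lung epithelium or 9 liver genes were well above background (control day 28 replicates 1, 3, 4 and 5 and nano-TiO2 day 1 replicate 2). Member differences are given below with either set left out where they moved.

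In Cy5, 7 of the 8 members were well above background on 22 of 22 arrays. All 8 genes of the endothelial list were also well above background on every array, so detection does not set fibroblasts apart. Olfml2b was so on 16, namely on 2 of 5 control and 4 of 5 nano-TiO2 arrays at day 1, and on 6 of 6 control and 4 of 6 nano-TiO2 arrays at day 28. Its lower values therefore lie near the background. In the reference channel Tcf21 was well above background on 0 arrays and Mfap5 on 8, so their ratios rest on a dim denominator. Second probes of Pdgfra and Olfml2b were well above background in Cy5 on 0 arrays and were not used. The Pdgfra probe stood on each array in 10 spots, whose log2 ratios had a median SD of 0.0798 against 0.171 between mice of a group.

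The same ordering of the groups ran through most of the members. The control day 1 mean was the lowest of the 4 for 7 of 8 members and the control day 28 mean the highest for 7 of 8, with both nano-TiO2 groups between them. The exceptions were Pi16, lowest with nano-TiO2 at day 28, and Pdgfra, highest with nano-TiO2 at day 1. Neighbours in this order mostly did not differ beyond their spread, and the comparison that passed the test was that of the extremes, day 28 against day 1 controls.

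**Figure D1:**
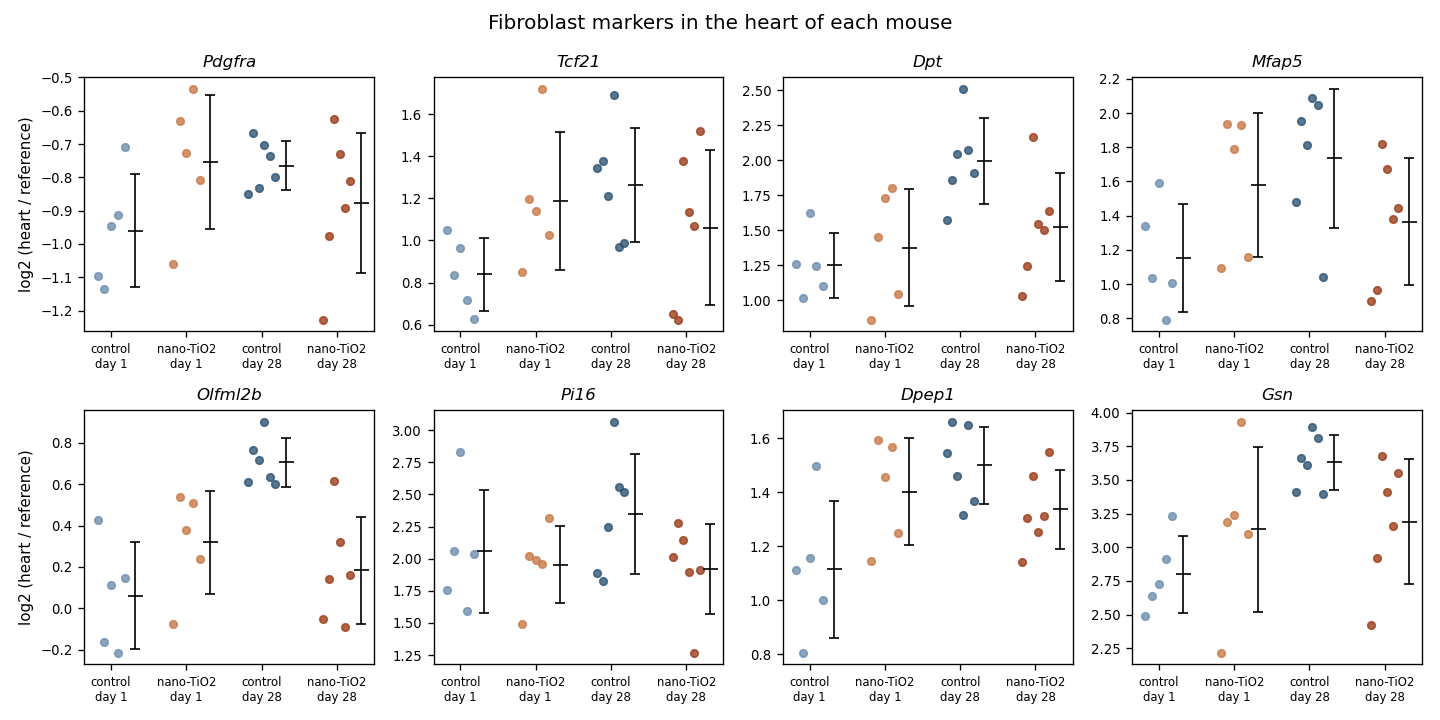
Log2 ratio of heart to reference for each of the 8 fibroblast markers (vertical axis, 1 scale per gene) in each mouse of the 4 groups (horizontal axis). Points are mice, and the horizontal mark with its bar is the mean ± SD of the group (n = 5, 5, 6 and 6). For Gsn and Olfml2b every day 28 control lies above every day 1 control, while for Olfml2b the day 1 nano-TiO2 mice overlap the day 1 controls and lie below the day 28 controls.

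The receptor and the transcription factor passed no comparison, although Tcf21 between the control groups passed with 2 other settings (given with that comparison). Pdgfra, which receives platelet-derived growth factors and is present on nearly all cardiac fibroblasts, had a mean of -0.96 ± 0.17 (SD, n = 5) in day 1 controls, against -0.75 ± 0.20 (n = 5) in treated mice. At day 28 the means were -0.76 ± 0.07 (SD, n = 6) in controls and -0.88 ± 0.21 in the 6 treated mice. Its 22 values spanned 0.694 in log2, the smallest span of the 8 members. Tcf21, needed in the mouse for epicardial cells to become fibroblasts, had means of 0.84 ± 0.17 and 1.19 ± 0.33 at day 1, and of 1.26 ± 0.27 and 1.06 ± 0.37 at day 28, controls before nano-TiO2.

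Among the secreted matrix proteins, Olfml2b, an olfactomedin-domain glycoprotein, separated the control groups. In the 5 day 1 controls its log2 ratios were 0.43, -0.16, 0.11, -0.22 and 0.15, and in the 6 day 28 controls they ran from 0.60 through a median of 0.68 to 0.90. Every day 28 control lay above every day 1 control. With nano-TiO2 the values at day 1 were -0.07, 0.54, 0.38, 0.51 and 0.24, and at day 28 they ran from -0.09 through 0.15 to 0.62. Both treated groups overlapped the day 1 controls. All 5 treated mice of day 1 lay below the day 28 controls, and at day 28 only the highest treated mouse reached their range.

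Dpt encodes dermatopontin, which binds decorin and helps collagen fibrils to form. Its day 1 control values were 1.26, 1.02, 1.63, 1.24 and 1.11, and the day 28 controls ran from 1.58 through 1.98 to 2.51. A single day 1 control, at 1.63, lay above the lowest day 28 control. Nano-TiO2 values were 0.86, 1.45, 1.73, 1.80 and 1.04 at day 1 and ran from 1.03 through 1.53 to 2.16 at day 28, overlapping the controls of each day. Mfap5, a protein of the fibrillin microfibrils, had means of 1.15 ± 0.31 and 1.58 ± 0.42 at day 1 and of 1.74 ± 0.41 and 1.36 ± 0.37 at day 28, controls first, with overlap throughout.

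Pi16, a peptidase inhibitor of adventitial fibroblasts, had the widest span of the 8 members over all mice, 1.80 in log2. Its means were 2.06 ± 0.48 and 1.95 ± 0.30 at day 1, and 2.35 ± 0.47 and 1.92 ± 0.35 at day 28, controls first. The other surface member, Dpep1, is a membrane dipeptidase that cleaves leukotriene D4. In day 1 controls it was 1.11, 0.80, 1.16, 1.50 and 1.00, and in day 28 controls it ran from 1.31 through 1.50 to 1.66. With nano-TiO2 it was 1.14, 1.59, 1.45, 1.57 and 1.25 at day 1 and ran from 1.14 through 1.31 to 1.55 at day 28. The lowest mice were day 1 controls, and the groups overlapped in every comparison.

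Gsn, gelsolin, severs and caps actin filaments and is abundant in fibroblasts, though muscle and mesothelial cells make it too. The day 1 control values were 2.49, 2.63, 2.73, 2.91 and 3.23, and the day 28 controls ran from 3.39 through 3.64 to 3.89, so these groups did not overlap. With nano-TiO2 the day 1 values were 2.22, 3.19, 3.24, 3.93 and 3.1, and at day 28 they ran from 2.42 through 3.29 to 3.68. The lowest mouse of each treated group is the one whose atrial genes were low.

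The first comparison asked whether the markers differed 1 day after instillation of nano-TiO2. None passed: limma called 0 of 15503 genes (percent called 0%), and 0 of 8 members, at a Benjamini-Hochberg adjusted p under 0.05. At an unadjusted p under 0.05 stood 1338 genes (8.63%) and 1 member, Dpep1, which differed by 0.29 ± 0.12 (SE) in log2 with limma's adjusted p of 0.4995. Without the 3 arrays low in atrial genes 6 members stood there, with Gsn at 0.52, Tcf21 at 0.43 and Dpt, which did not, at 0.20. In that setting 40 genes passed the adjusted threshold. With the 5 arrays of lung or liver genes set aside 0 members stood at an unadjusted p under 0.05, with Gsn at 0.32 and Dpt at 0.11. Under both settings 0 members passed the adjusted threshold. The 8.63% is for all 22 arrays, and the share of all genes in these smaller sets is not given here. The other members ran from -0.10 ± 0.23 for Pi16 to 0.43 ± 0.22 for Mfap5, with Tcf21 at 0.35 ± 0.17, Gsn at 0.33 ± 0.24, Olfml2b at 0.26 ± 0.14, Pdgfra at 0.21 ± 0.11 and Dpt at 0.13 ± 0.20. Thus 7 of 8 members had a higher mean with nano-TiO2, as 54.2% of all genes did, though Dpt was -0.12 with plain background subtraction and Pi16 was above 0 under 4 settings. The median over the members was 0.27 against 0.01 over all genes. Within the 3 scan days, 22 of the 24 member differences were above 0, and on the 4 slides shared by both groups 22 of 32 were.

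Other fibroblast genes had the same sign at day 1 and likewise none passed. Of 20 matrix and surface genes 18 had a higher mean with nano-TiO2 (median 0.31), of 10 adventitial genes 7 (median 0.19) and of 11 activation genes 9 (median 0.31). Fbln1, the matrix protein fibulin 1, differed by 0.74 ± 0.25, and Fbn1, the main microfibril protein, by 0.32 ± 0.14. Comp, a matrix protein of cartilage and tendon, differed by 1.25 ± 0.49 and Ltbp2, which sits on microfibrils, by 0.49 ± 0.20. In the adventitial list Efhd1, a mitochondrial calcium-binding protein, differed by 0.54 ± 0.18 and Tnxb, tenascin X, by 0.50 ± 0.25. The limma adjusted p of these 6 genes ran from 0.478 to 0.583. The 5 other genes of the PDGF system, ligands and the second receptor, lay between -0.07 and 0.04, with Pdgfrb at -0.07 ± 0.08 and Pdgfd at -0.07 ± 0.09. Pdgfd was well above background in Cy5 on 6 of 22 arrays, so its values lie near the background.

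The second comparison asked the same 28 days after instillation. limma called 0 of 15503 genes (percent called 0%) and 0 members, with 1178 genes (7.6%) and 2 members at an unadjusted p under 0.05. All 8 members had a lower mean with nano-TiO2, as 51.9% of all genes did, with a median of -0.40 against -0.01 over all genes. Olfml2b differed by -0.52 ± 0.12 (SE) with limma's adjusted p of 0.637, and ranked 5 among all genes by p. It was lower within each of the 3 scan days and each of the 6 slides, by 0.34 to 0.64 within scan days. Dpt differed by -0.47 ± 0.18 (SE) with limma's adjusted p of 0.637, and was lower within each scan day and on 5 of 6 slides.

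The remaining members had adjusted p from 0.659 to 0.818 at day 28. Gsn differed by -0.44 ± 0.22, Pi16 by -0.43 ± 0.21, Mfap5 by -0.37 ± 0.20, Tcf21 by -0.20 ± 0.16, Dpep1 by -0.16 ± 0.11 and Pdgfra by -0.11 ± 0.10. These values moved with single mice: without nano-TiO2 day 28 replicate 1, Pdgfra was -0.04 and Gsn -0.29. With the 5 arrays that showed lung epithelium or liver genes set aside, which leaves 2 day 28 controls, Olfml2b was -0.50, Dpt -0.36 and Mfap5 -0.13.

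In the other fibroblast lists, 0 genes passed at day 28. Lower means with nano-TiO2 were found for 15 of 20 matrix and surface genes (median -0.21), 8 of 10 adventitial genes (median -0.14), 9 of 11 activation genes (median -0.21) and 5 of 5 PDGF genes (median -0.07). Abca8a, a lipid transporter, differed by -0.34 ± 0.13 and Mfap4, a microfibril protein, by -0.67 ± 0.30. Dpp4, a surface peptidase of adventitial progenitors, differed by -0.33 ± 0.12 and Efhd1 by -0.36 ± 0.16, while Acta2, smooth muscle actin, differed by -0.45 ± 0.21 and Postn by -0.58 ± 0.29. Pdgfa and Pdgfb, both ligands, differed by -0.14 ± 0.10 and -0.12 ± 0.09, with Pdgfb well above background in Cy5 on only 9 of 22 arrays. The adjusted p of these 8 genes ran from 0.637 to 0.776 with limma.

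The difference between the effects at the 2 days was tested as an interaction over all mice. limma called 0 of 15503 genes (percent called 0%), with 2287 genes (14.8%) at an unadjusted p under 0.05. No member passed, and 7 of 8 stood at an unadjusted p under 0.05, all on the negative side (9.95% of all genes). All 8 members had a day 28 effect below the day 1 effect, as 54.2% of all genes did. The interaction was -0.78 ± 0.18 for Olfml2b (limma adjusted p = 0.118), -0.80 ± 0.30 for Mfap5 (0.216), -0.77 ± 0.33 for Gsn (0.268) and -0.45 ± 0.16 for Dpep1 (0.182). Dpt was at -0.60 ± 0.27, Tcf21 at -0.55 ± 0.24, Pdgfra at -0.32 ± 0.15 and Pi16 at -0.33 ± 0.32. The median was -0.58 against -0.02 over all genes. Without the arrays low in atrial genes 7 members again stood at an unadjusted p under 0.05, with Olfml2b at -0.77 (limma adjusted p = 0.0566) and Gsn at -0.81. With the arrays of lung or liver genes set aside 1 did, Olfml2b at -0.70 (adjusted p = 0.833), and Mfap5 was -0.47. The 14.8% and 9.95% are for all 22 arrays, and the share of all genes in these smaller sets is not given here.

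The vehicle mice were compared between day 28 and day 1, and here 4 of 8 members rose. These control groups also differed in markers of other tissues, given below. limma called 1623 of 15503 genes (percent called 10.5%), 1089 of them higher (7.02%). Gsn rose by 0.83 ± 0.23 (SE, 1.78-fold, limma adjusted p = 0.0239) and Dpt by 0.75 ± 0.19 (1.68-fold, adjusted p = 0.0161). Dpep1 rose by 0.39 ± 0.11 (1.31-fold, adjusted p = 0.0281) and Olfml2b by 0.64 ± 0.13 (adjusted p = 0.00531). The size for Olfml2b is uncertain, since only 2 of 5 day 1 control arrays were well above background, and it was 2.22 with plain background subtraction and 1.45 with scanner ratios. The groups did not overlap for 2 members, Gsn and Olfml2b, as was so on the higher side for 4.66% of genes. In bulk tissue more cells of a type and more RNA per cell cannot be told apart.

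The other 4 members did not pass, although all 8 had a higher mean in day 28 controls, as 49.4% of all genes did. Mfap5 differed by 0.58 ± 0.21 (adjusted p = 0.0806 by limma), Tcf21 by 0.43 ± 0.17 (0.108, against 0.0488 without background subtraction and 0.0464 in the series matrix), Pi16 by 0.29 ± 0.22 (0.449) and Pdgfra by 0.19 ± 0.10 (0.242). Within the 3 scan days the difference ran from 0.56 to 0.70 for Olfml2b, from 0.58 to 0.82 for Dpt, from 0.53 to 1.03 for Gsn and from 0.23 to 0.64 for Dpep1. Pi16 was lower at day 28 within 2 of the 3 scan days. On the 3 slides that hold both control groups, 1 array each, 21 of 24 member differences were above 0.

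The calls of Dpt and Olfml2b held when any 1 mouse was left out, with Dpt at an adjusted p of 0.0498 at the highest. Those of Gsn and Dpep1 did not (up to 0.0677 and 0.0961), and Mfap5 passed without control day 28 replicate 6 (0.72, adjusted p = 0.0202). Dpt lost its call with plain background subtraction (limma adjusted p = 0.499) and with scanner ratios (0.304), where Gsn kept its own (0.0372 and 0.0301). Of the 8 members 3 passed without the arrays low in atrial genes, a setting for which the share of all genes is not given here. With slide as a fixed block 0 passed, as without the arrays holding lung epithelium or liver genes, where Olfml2b was 0.62 (adjusted p = 0.279).

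In nano-TiO2 mice the same interval gave no call. limma called 0 of 15503 genes (percent called 0%), with 697 (4.5%) and 0 members at an unadjusted p under 0.05. The member differences ran from -0.22 ± 0.21 for Mfap5 to 0.15 ± 0.19 for Dpt, with Olfml2b at -0.13 ± 0.13, Gsn at 0.06 ± 0.23 and Dpep1 at -0.07 ± 0.11. The comparisons described so far share mice, so their values are not independent, and the change over time in controls against that in nano-TiO2 mice is the interaction given above, which no member passed.

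**Figure D2:**
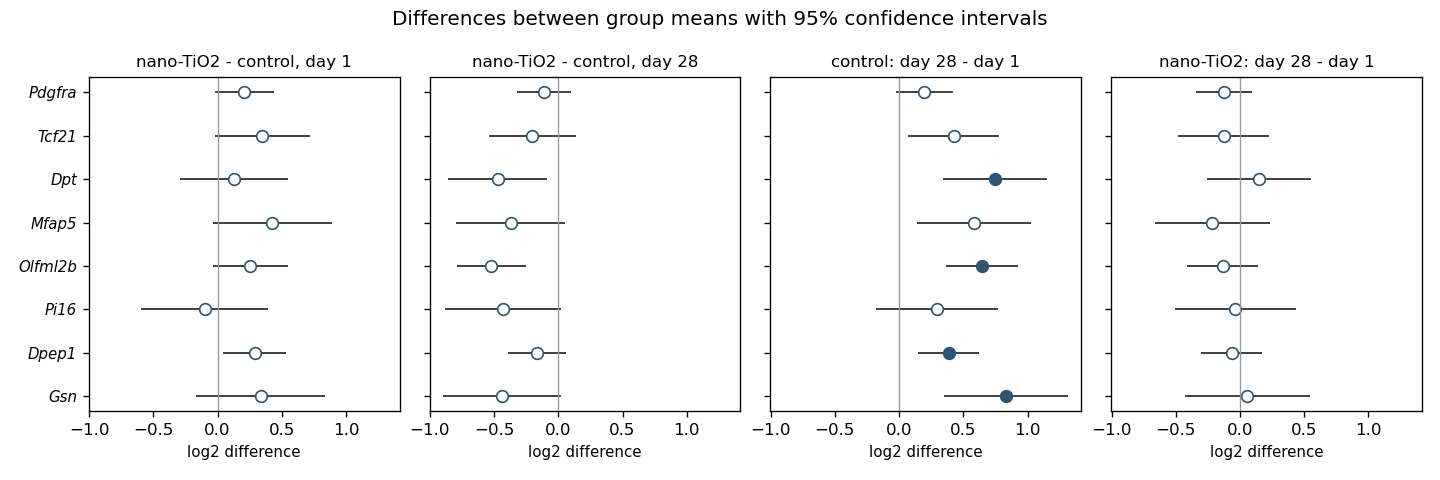
Log2 difference between group means (horizontal axis) for each fibroblast marker (rows) in 4 comparisons, with 95% confidence intervals from the limma fit. Filled points passed the adjusted p threshold of 0.05 over all genes. They are Dpt, Olfml2b, Dpep1 and Gsn in the control mice, day 28 minus day 1, and there are none in the other panels.

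Among the other fibroblast genes, 6 of 20 matrix and surface genes, 3 of 10 adventitial genes and 6 of 11 activation genes rose from day 1 to day 28 in controls, and 0 fell, beside 7.02% of all genes that rose. The genes named above were picked by their p in comparisons that share these control mice. Their rises are therefore a description and no further support. Of them, Efhd1 rose by 1.02 ± 0.17 (limma adjusted p = 0.00270), Fbln1 by 1.03 ± 0.24 (0.0103) and Dpp4 by 0.55 ± 0.13 (0.0109). Comp rose by 1.98 ± 0.47 (adjusted p = 0.0111), Postn by 1.07 ± 0.31 (0.0275), Acta2 by 0.77 ± 0.22 (0.0259), Ltbp2 by 0.65 ± 0.19 (0.0290) and Mfap4 by 0.99 ± 0.32 (0.0478). Fbn1, Tnxb and Abca8a, also named above, did not pass (limma adjusted p = 0.127, 0.174 and 0.212). Acta2 is also the main actin of smooth muscle. Of the 5 PDGF genes 0 passed, with a median of 0.03, too few genes to set against the 7.02%. Pdgfb and Pdgfd were well above background in Cy5 on only 9 and 6 of 22 arrays. Pdgfc was so on 2 of 5 day 1 controls and 6 of 6 day 28 controls. Of the 20 matrix and surface genes 18 had a higher mean in day 28 controls (median 0.45). Mmp2, Ddr2, Sparc and Lamc1, picked from that list after their values were seen, lay between -0.05 and 0.05. Ddr2 is dim in Cy5, where it cleared background in 1 of 5 day 1 controls and 5 of 6 day 28 controls. Its ratio therefore cannot show whether Ddr2 changed.

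Markers of other tissues of the heart moved with these genes. Over each list the mean of its tested genes was taken per mouse, after each gene was centred on its mean over all mice. The fibroblast mean ran from -0.39 to -0.02 in day 1 controls and from 0.09 to 0.57 in day 28 controls, without overlap, and from -0.46 to 0.33 and -0.42 to 0.30 in the nano-TiO2 groups at day 1 and day 28. The adipocyte mean ran from -2.0 to -1.01 in day 1 controls and from -0.00118 to 2.39 in day 28 controls. In the nano-TiO2 groups it ran from -1.85 to 1.95 and from -1.96 to 1.62. Both lists thus had their lowest group in day 1 controls and their highest in day 28 controls.

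Of 9 tested adipocyte genes 6 rose in controls from day 1 to day 28, as did 6 of 6 mesothelium genes, 3 of 6 atrial genes and 5 of 7 macrophage genes. Of 7 smooth muscle and pericyte genes 4 rose and 1 fell, Kcnj8, a potassium channel of pericytes (-0.49, limma adjusted p = 0.00778). The fat cell genes Adipoq, Plin1 and Cidec were well above background on 1 of 5 day 1 control arrays and on 6 of 6 day 28 control arrays, Retn and Ucp1 on 0 and 6, and Lep on 0 arrays of any group. Cfd was so on 4 of 5 and 6 of 6, and Cidea, Plin4 and Lipe on all 22 arrays. Of the atrial genes Bmp10 was so on 0 of 5 and 6 of 6, Dkk3 on 3 of 5 and 6 of 6, and Sln on 4 of 5 and 6 of 6. Myl4, Myl7 and Stard10 were so on all 22. Of the mesothelium genes Upk1b and Lrrn4 were so on 1 of 5 and 6 of 6, and Upk3b on 4 of 5 and 6 of 6. Krt19, Msln and Wt1 were so on all 22. Cardiomyocyte genes went the other way, with a lower mean for 9 of 10, of which 5 passed, and 0 of 8 endothelial genes passed. The share of all genes that passed on the lower side is not given here. The atrial mean ran from -3.56 to -0.02 and from 0.79 to 1.53 in the control groups, and the mesothelium mean from -1.15 to -0.24 and from 0.22 to 0.89. The part of these tissues in the rise of the fibroblast markers was not tested.

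The list counts of the nano-TiO2 comparisons moved in the same way without a call. At day 1 all 9 adipocyte, 6 atrial and 6 mesothelium genes had higher means with nano-TiO2 (medians 2.34, 1.54 and 0.81), and at day 28 all had lower means (medians -1.87, -1.11 and -0.56). The day 28 controls also held the arrays with liver and lung epithelium genes, where the liver mean reached 3.52 and Scgb1a1, the single lung epithelium gene tested, 3.55 above its mean over all mice. Their part in the member differences was not tested, beyond the values without those arrays given above.

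**Figure D3:**
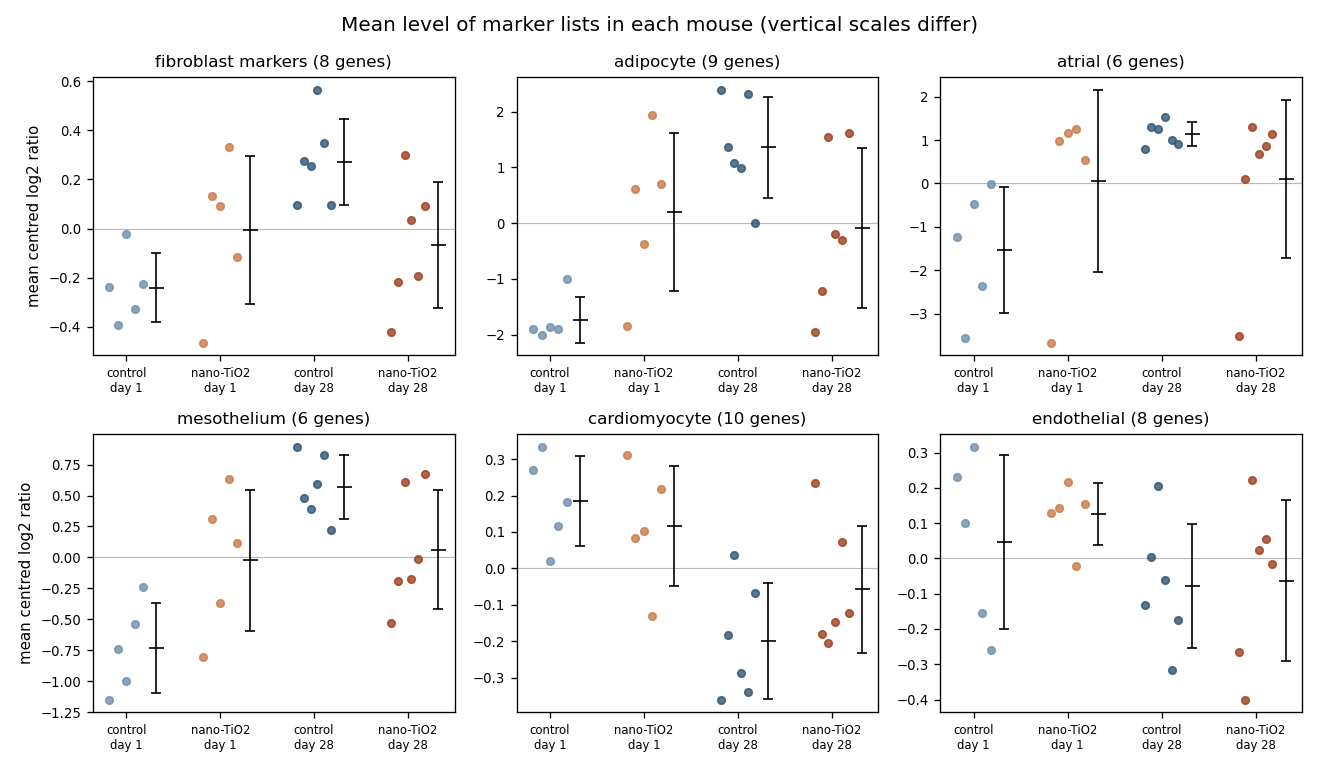
Mean centred log2 ratio of 6 marker lists (vertical axis, 1 scale per list) in each mouse of the 4 groups (horizontal axis), with the mean ± SD of each group. In the fibroblast, adipocyte, atrial and mesothelium panels all 6 day 28 controls lie above all 5 day 1 controls, while the 3 mice below -3 in the atrial panel belong to different groups.

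Among mice of the same group the fibroblast markers rose and fell together to different degrees. With group means subtracted, the 28 pairs of members correlated over 22 mice at Pearson's r from -0.20 to 0.92, with a median of 0.56. In a permutation test with Benjamini-Hochberg adjustment over the 28 pairs, 17 passed (19 by Spearman's rho). The share that would pass among pairs of all genes is not given here. The closest pair was Pdgfra and Gsn (r = 0.924, rho = 0.913, permutation p = 1e-05, the smallest that 100000 permutations can give, adjusted 1.4e-04), with r = 0.853 without the 2 mice farthest in Pdgfra. Next came Dpt and Mfap5, both matrix proteins (r = 0.787, rho = 0.850, permutation p = 1e-05, adjusted 1.4e-04). For Pi16 over all mice r with the other members ran from -0.20 with Dpep1 to 0.43 with Dpt, and 0 of its 7 pairs passed. Within scan day 2 its r ran from 0.313 with Olfml2b to 0.892 with Gsn, and within scan day 3 from -0.35 to 0.51.

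These correlations rest in part on a few mice. Without the 3 mice low in atrial genes 6 of 28 pairs passed by Pearson's r, with Pdgfra and Gsn at 0.868 and Dpt and Mfap5 at 0.720. Within the 8 mice of the second scan day the median r was 0.87, and within the 8 of the third it was 0.563. Each of these days holds 2 mice per group, so with group means subtracted the values of a group mirror each other. Permuting the 8 values as if they were independent cannot test these r, which are a description. The first scan day held too few mice.

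**Figure D4:**
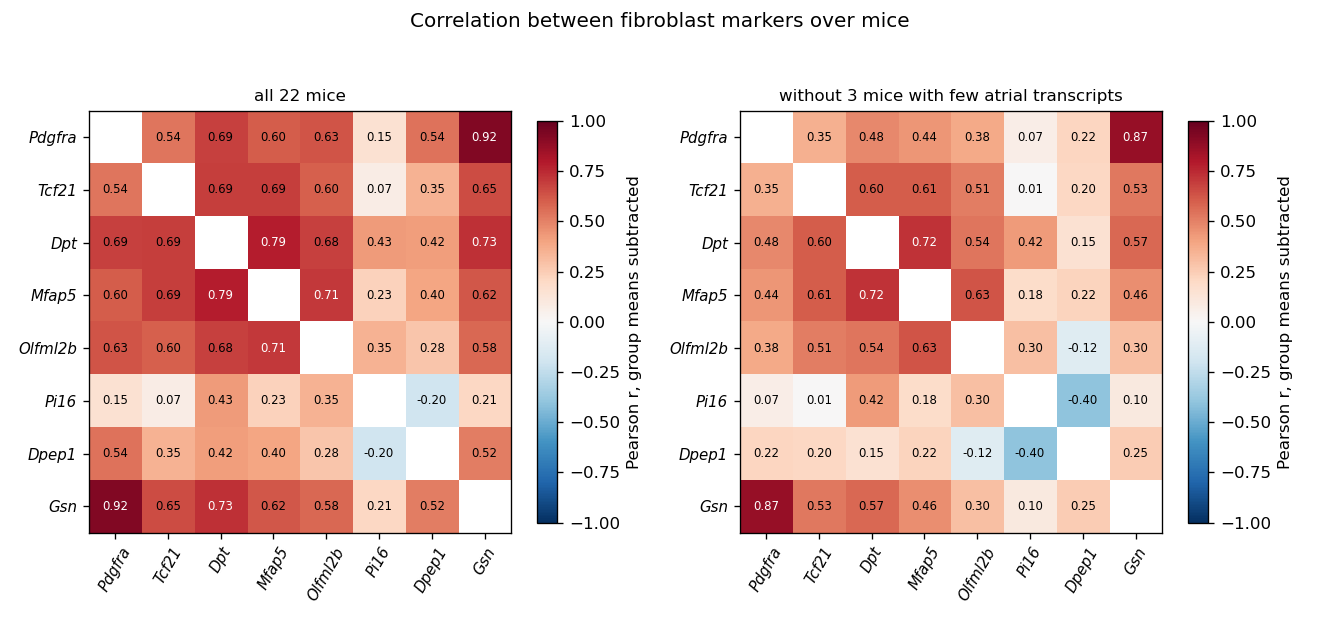
Pearson's r between each pair of fibroblast markers over mice, with group means subtracted (colour and number in each cell, both axes list the genes), for all 22 mice on the left and without the 3 mice low in atrial genes on the right. Pdgfra and Gsn keep the highest r in both panels, the Pi16 row is the palest, and most other values are lower on the right.

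Several members also went with the markers of neighbouring tissues within groups, in 24 relations to the adipocyte, atrial and mesothelium means. These were looked at because an earlier account of the same mice reported that fibroblast markers moved with fat cell markers. The p-values below are therefore no independent support for such a relation. With the atrial mean r ran from 0.25 to 0.84 over all 22 mice, and 7 of 8 members passed (6 by rho). Pdgfra was the highest (r = 0.836, rho = 0.747, permutation p = 1e-05). Over the 19 mice with an atrial mean above -3, r with it ran from -0.28 to 0.56 and 0 of 8 passed. Within scan day 2 r with the atrial mean ran from 0.632 to 0.936, and within scan day 3 from -0.494 to 0.873. Over all 22 mice Gsn went with the adipocyte mean at r = 0.818 (rho = 0.668, permutation p = 1e-05) and with the mesothelium mean at r = 0.821 (rho = 0.757, permutation p = 1e-05). Without the 2 mice farthest in the marker mean these were 0.898 and 0.817, and over the 19 mice 0.662 and 0.709. For Gsn the same relations were 0.797 and 0.819 within scan day 2 and 0.851 and 0.904 within scan day 3. Pi16 had r = 0.0389 and 0.0635 with these means over all mice, 0.829 and 0.954 within scan day 2 and 0.437 and 0.441 within scan day 3. Over all 22 mice 7 members passed with the adipocyte mean and 4 with the mesothelium mean, and over the 19 mice 1 and 2, with Benjamini-Hochberg adjustment over the 24 relations. The share of all genes that would pass against these means is not given here. Within the second scan day all 24 relations were above 0, and within the third 23 were. As with the pairs, each of these days holds 2 mice per group, so r within a day is a description without a test.

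The genes whose values over the 22 mice were most like the mean of the 8 members, with group means subtracted, were Col14a1 (r = 0.936), Pam (0.922), Fbln1 (0.922), Tmem163 (0.917), Ptgfr (0.917) and Tceal3 (0.916). They were chosen among 10331 genes by this measure, so the values are a description, and the 95th percentile of r over those genes was 0.673. Col14a1 encodes a collagen that sits on fibrils, Pam an enzyme that amidates peptide hormones, and Ptgfr the receptor for prostaglandin F2 alpha. In controls from day 1 to day 28 Col14a1 rose by 1.42 ± 0.32 (SE, limma adjusted p = 0.00811), Pam by 1.37 ± 0.32 (0.00932), Tmem163 by 2.45 ± 0.63 (0.0159), Ptgfr by 1.19 ± 0.33 (0.0257) and Tceal3 by 1.04 ± 0.22 (0.00648). With nano-TiO2 none of the 6 passed at day 1, where they lay between 0.57 and 1.87, or at day 28, where they lay between -0.81 and -0.40.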

How the data were processed

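Hearts of 22 mice were measured, 1 per array, on 9 slides scanned on 3 days. The deposited scanner files give median intensities per spot and local background, unsubtracted, and a deposited log10 ratio (Cy5 over Cy3). Per the file headers Agilent Feature Extraction 10.7.3.1 made this ratio, subtracting background and correcting for dye, while the submitters' processing notes name 9.5.3.1. The authors' series matrix holds log2 values. They correlated at r from 0.992 to 0.998 with loess ratios without background subtraction, so they are log2 of Cy5 over Cy3, with column medians of -0.0362 to -0.0207. How they were centred is not given in the sources used here.

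Median intensities were corrected with normexp (offset 50), fitted without spots marked for an uneven background, and loess-normalized in limma 3.58.1 (R 4.3.3, with data.table version 1.17.8). Spots marked uneven or outlying (0.299%) were left out, and spots of a probe averaged. Of 41174 probes, 19275 were kept, those exceeding background clearly in the heart channel on 5 or more arrays. A gene was represented by its brightest kept probe and named through RefSeq accessions (23374 probes matched). limma was fitted with a mean per group over all 22 arrays and eBayes, with Benjamini-Hochberg adjustment over 15503 genes and a threshold of 0.05. It was tested on simulated data. Figures and correlations used Python 3.11.15, numpy 2.4.6, pandas 2.3.3 and matplotlib 3.10.9. The number of arrays limits the precision.

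The members and lists were chosen with earlier results of these data known. Named genes were the 8 members, the 2 genes with the smallest p at each day in each of 4 related lists, the 6 genes most like the members' mean and 5 genes for the tissue. Samples were grouped by title. Alternatives were other background corrections and normalizations, the scanner ratios, the series matrix, filters, probe summaries, trend and robust eBayes, a fit on the compared groups alone, blocks for slide or scan day, and leaving out each mouse.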

Additional observations from a re-analysis of the deposited data

How the results depend on the processing

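The sign of the member differences held in nearly all settings. Of 933 values of single members, 891 kept direction and side of the threshold, 31 kept direction but lost the call, 3 gained it (Tcf21 in 2 settings and Mfap5 in 1) and 8 reversed. Dpt at day 1 was -0.12 with plain background subtraction. Pi16 at day 1 (-0.10) was 0.0884 with normexp fitted on all spots, 0.0894 with median centring, 0.0246 with slide as a fixed block and 0.0156 without the 3 arrays low in atrial genes, and from -0.22 to 0.0921 when 1 mouse was left out (above 0 without control day 1 replicate 3, and 0.0143 without nano-TiO2 day 1 replicate 1). In day 28 against day 1 controls Pi16 was -0.0675 with slide as a fixed block. Median centring moved the median of all genes to 0.17 at day 1 and 0.13 between the control groups, so Pi16 at day 1 stayed below that median. Olfml2b and Tcf21, both dim in 1 channel, had larger sizes with plain subtraction: Olfml2b 1.35, -1.47 and 2.22 at day 1, at day 28 and between the control groups, and Tcf21 -0.97 at day 28 and 1.40 between the control groups. With scanner log ratios Olfml2b was 0.83, -0.93 and 1.45. Olfml2b has no value when probes must be above background on all arrays.

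The 1623 genes that differed between the control groups became 79 with normexp fitted on all spots (92.4% higher, against 67.1%), 3865 with scanner log ratios (47.3%), 87 with median centring (100%), 0 with slide as a fixed block (2810 at an unadjusted p under 0.05) and 1 when the 5 arrays showing lung epithelium or liver genes were left out. Leaving out 1 mouse gave 958 (control day 1 replicate 2) to 2069 (control day 28 replicate 6), with 1059 without control day 1 replicate 1, and 961 and 1067 without control day 28 replicates 4 and 5. The 4 members past the threshold became 2 with plain subtraction and with scanner ratios, Gsn and Olfml2b in both. They became 0 with normexp on all spots, median centring and slide as a fixed block, and 0 without those 5 arrays. They were 2 to 5 when 1 mouse was left out, with 2 without control day 1 replicate 1, control day 1 replicate 2 or control day 28 replicate 5.

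At day 1 the 0 calls became 7 with scanner ratios, 40 without the arrays low in atrial genes and 0 to 21 when 1 mouse was left out (21 without nano-TiO2 day 1 replicate 1). At day 28 they were 0 to 3 when 1 mouse was left out (3 without control day 28 replicate 6) and 0 under the other alternatives. The interaction gave 45 genes with scanner ratios, 6 with scan day as a block, 95 without the arrays low in atrial genes and 0 to 311 when 1 mouse was left out (311 without nano-TiO2 day 1 replicate 1, 178 and 13 without nano-TiO2 day 28 replicates 3 and 6, 28 without control day 28 replicate 6). Of the 24 relations to other markers 18 passed over all mice, 11 within scan day 2, 1 within scan day 3, and 3 without the arrays low in atrial genes. The cause of these changes was not tested, and the last settings also hold fewer mice. Setting aside the low atrial arrays or those with lung or liver genes was chosen after seeing the data. No paired analysis was possible because the replicate numbers only follow the order of deposit, and slides that hold a control and a treated array were fitted as a block instead. Signal near background limits Olfml2b in Cy5 and Tcf21 and Mfap5 in Cy3.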
